A study of Mus musculus with 120 samples.

Results

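The colonic bacteria of antibiotic-treated mice were compared between constant light (LD24/0, 24 h of light per day) and the standard cycle of 12 h of light and 12 h of dark (LD12/12). The comparison was taken by the sample labels and held 12 of the 120 samples of the series, 6 from each light cycle. Both groups were C57BL/6N mice, a common inbred black strain, aged 10 weeks. They had 7 days to acclimatise and were kept on their light cycle for 42 days in single cages under LED light of 150 to 200 lux, with 24 mice in each experimental group. Both groups ate the same sterilised chow and drank water with a cocktail of broad-spectrum antibiotics whose drugs are not named in the labels, so antibiotics were common to both and light was the planned difference. Each sample is DNA of colonic content, and the 16S rRNA gene, the usual marker for naming bacteria, was sequenced on a PacBio long-read instrument. The labels name no cage, batch or sequencing run, so p values measure only the spread between these samples.

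Oral broad-spectrum antibiotics remove most of the obligate anaerobes that normally fill the mouse colon, above all Muribaculaceae and Clostridia. What remains is usually a community of few members, led by facultative anaerobes such as Enterobacterales and enterococci and by anaerobes that tolerate the drugs. A light-dark cycle sets feeding rhythms and the host clock, and constant light disturbs both, which is why light is studied as a factor for gut bacteria.

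The values are counts of reads per amplicon sequence variant (an exact 16S sequence), given below as percent of the counts of a sample. Total counts of the 12 samples ran from 53336 to 68599. A share is relative: when 1 genus takes more of the reads, all others take less, and fewer bacteria of a kind cannot be told apart from more of another. The composition differed from that of the colon on chow. The 5 most abundant genera of the 12 samples summed to 90.1% ± 1.40 under LD24/0 and 89.5% ± 0.739 under LD12/12 (SD, n = 6 each), against 1.74% ± 0.813 (SD, n = 6) and 2.54% ± 0.193 (SD, n = 6) in the colon on chow at the same light cycles. These 5 were picked for their shares in the 12 samples, so a lower sum on chow was partly fixed by the choice. The number of variants counted was 176 to 226 in LD24/0 and 125 to 220 in LD12/12, against 363 to 1025 and 531 to 949 on chow.

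A property of the libraries has to be stated before the results. The 29 colon libraries under antibiotics were divided into 4 sets by variants found at even, low levels in the libraries of a set. The rule passed over any pattern of variants that overlapped a set already formed, so that the sets share no library follows from the rule. The sets were defined here from these data, are not named in the labels and cut across light cycles. Set A held the 6 LD24/0 libraries with replicates 1 and 2 of LD0/24 (constant dark), and its 7 marker variants belonged to Caproiciproducens, Enterobacter, Erwinia, Pantoea, Subdoligranulum and an unclassified group of Clostridia. Set C held the 6 LD12/12 libraries with replicates 5 and 6 of LD16/8 (16 h of light) and rests on 1 marker variant, of Subdoligranulum. Set B held the rest of LD0/24 and LD16/8, with 3 markers, and set D held the 5 libraries of LD8/16 (8 h of light), with 1 marker, of Cryobacterium. No set held both LD24/0 and LD12/12 libraries, so light cycle and library set cannot be told apart in the direct comparison. A fit with the set as a block can reach the contrast only through LD0/24 and LD16/8, and with it none of the 25 genera called below kept its call. Its standard errors (SE) were wider than those of the direct fit, for example 3.62 against 2.18 for Bacteroides and 0.37 against 0.23 for Pediococcus. A call lost in it therefore does not show that a difference was absent.

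In every one of the 12 samples 1 genus among 4 was the most abundant, and the choice differed between mice. Parabacteroides led 6 samples, Klebsiella led 3 across both light cycles, and Enterococcus and Bacteroides led samples of LD24/0 alone. Parabacteroides, an obligate anaerobe of the order Bacteroidales, had a lowest, median and highest share of 2.94%, 23.3% and 62.7% in LD24/0 and of 28.6%, 43.9% and 59.8% in LD12/12. The groups overlapped, and the log2 fold change of LD24/0 over LD12/12 was -0.64 ± 0.70 (SE, edgeR quasi-likelihood test, Benjamini-Hochberg adjusted p = 0.790). With the set as a block the log2 difference was 2.33 (adjusted p = 0.487). The low end of LD24/0 was replicates 2 and 3, at 2.94% and 7.38%.

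**Figure D1:**
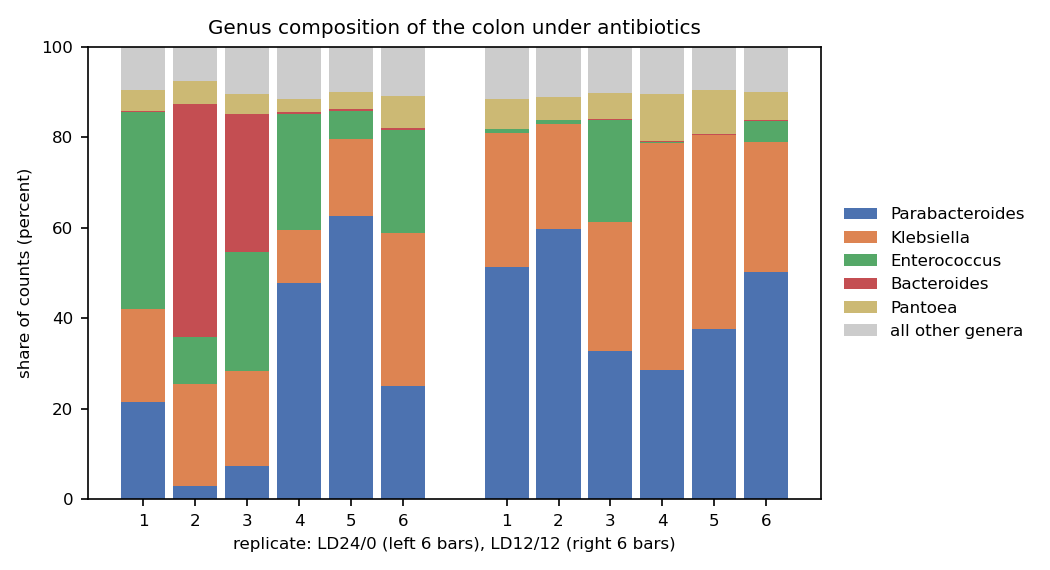
Share of counts in percent (vertical axis, 0 to 100) of the 5 most abundant genera and of all other genera in each replicate of LD24/0 and LD12/12 in the colon under antibiotics. Enterococcus takes 6.17% to 43.5% in LD24/0, and Bacteroides is wide only in LD24/0 replicates 2 and 3.

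Enterococcus, a lactic acid-producing facultative anaerobe known for tolerance of many antibiotics, did not pass the test across genera. Its lowest, median and highest share was 6.17%, 24.3% and 43.5% in LD24/0 and 0.0802%, 0.731% and 22.6% in LD12/12. All 6 LD24/0 samples were above 5 of the 6 LD12/12 samples, and LD12/12 replicate 3, at 22.6%, lay within the LD24/0 range. The log2 fold change was 2.22 ± 1.34 (SE, edgeR adjusted p = 0.355), and it was 4.14 without LD12/12 replicate 3 (adjusted p = 0.0555). A fit of centred log-ratios with limma called it, at 3.64 (adjusted p = 0.0497). In the 2 LD0/24 libraries of the same set as LD24/0, Enterococcus took 0.272% and 0.395%, and with the set as a block the log2 difference was -4.90 (adjusted p = 0.387).

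Bacteroides, an anaerobe that breaks down complex polysaccharides, was higher in LD24/0 in the fit but was so in 2 distinct ways. Its lowest, median and highest share was 0.31%, 0.369% and 51.6% in LD24/0 and 0.0855%, 0.122% and 0.201% in LD12/12. Replicates 2 and 3 of LD24/0 held 51.6% and 30.4%, and the other 4 held 0.31% to 0.398%, so that the groups did not overlap. The log2 fold change was 6.76 ± 2.18 (SE, edgeR adjusted p = 0.0324). The call was lost without replicate 2 or replicate 3 of LD24/0 (adjusted p = 0.0675 and 0.0557) and without any 1 of the 6 LD12/12 samples, with adjusted p from 0.0550 to 0.0649 in those 6 fits. It was also lost with the set as a block (7.56, adjusted p = 0.423), with limma on centred log-ratios (3.24, adjusted p = 0.242), with the replicate number as a block (3.74, adjusted p = 0.279) and with a filter of 1 count in 1 sample (adjusted p = 0.0775). The 2 LD0/24 libraries of the set of LD24/0 held 0.281% and 0.288%, which is above every LD12/12 value.

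In LD24/0, Parabacteroides was low in the samples where Bacteroides was high. The sum of both was 41.8% ± 16.4 (SD, n = 6) in LD24/0 and 43.5% ± 12.2 (SD, n = 6) in LD12/12. In LD24/0 replicate 2 the sum was 54.5% and in replicate 3 it was 37.8%, inside the LD12/12 range of 28.8% to 59.9%. Other light cycles under antibiotics had such samples too, with Bacteroides at 65.3% and 62.7% in LD0/24 replicates 3 and 6 and at 53.6% and 56.0% in LD8/16 replicates 4 and 5. High Bacteroides was therefore not seen in LD24/0 alone. The sum with Parabacteroides was not steady in those light cycles. It was 67.2% and 71.2% in LD0/24 replicates 3 and 6, against 1.64% to 22.1% in the rest of LD0/24. In LD8/16 replicates 4 and 5 it was 55.7% and 61.5%, against 26.6% to 43.6% in the rest of LD8/16.

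Klebsiella, a capsulated facultative anaerobe of the Enterobacterales, had a lowest, median and highest share of 11.7%, 20.8% and 33.7% in LD24/0 and of 23.2%, 29.3% and 50.1% in LD12/12. The groups overlapped (edgeR log2 fold change -0.68 ± 0.34, adjusted p = 0.211). Limma on centred log-ratios called it lower, at -1.21 (adjusted p = 0.0356). When Enterococcus and Bacteroides were taken out of the library size the difference was 0.06 (adjusted p = 0.964), so its sign depends on these 2 genera being in the total. Pantoea, a relative found on plants as well as in guts, had a median of 4.63% in LD24/0 and 6.39% in LD12/12 (log2 fold change -0.63 ± 0.34, edgeR adjusted p = 0.248).

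Klebsiella and Pantoea kept nearly 1 ratio to each other. Klebsiella counts were 4.45 ± 0.224 (SD, n = 6) times those of Pantoea in LD24/0 and 4.66 ± 0.177 (SD, n = 6) times in LD12/12, while the Klebsiella share itself ranged over 11.7% to 50.1%. For the most abundant variant of each, assigned to Klebsiella aerogenes and Pantoea agglomerans, the ratio stayed between 4.75 and 4.96 in LD24/0 and between 4.60 and 5.02 in LD12/12. The source of this ratio was not tested.

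Another 3 of the 10 most abundant genera also did not pass the test. Enterobacter, also of the Enterobacterales, was at 0.864% ± 0.191 (SD, n = 6) in LD24/0 and 0.822% ± 0.198 (SD, n = 6) in LD12/12 (edgeR log2 fold change 0.07 ± 0.24, adjusted p = 1.00). Its variants did differ, and 4 of them were called in the test of variants, all higher in LD24/0. Its second variant made up a mean of 11.7% of the genus in LD24/0 and 23.6% in LD12/12 (exact permutation test, p adjusted over 30 variants 0.0186). Lactiplantibacillus was at 1.17% ± 0.149 and 1.37% ± 0.113 (SD, n = 6 each), and Ligilactobacillus at 0.561% ± 0.162 and 0.654% ± 0.264 (SD, n = 6 each). Both log2 fold changes were -0.22, with SE of 0.17 and 0.30.

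Across all genera with at least 3 counts in at least 5 of the 29 samples fitted, 144 were tested and 25 passed an adjusted p of 0.05, which is 17.4% of those tested. In LD24/0, 17 were higher (11.8%) and 8 were lower (5.56%), and 36 had an unadjusted p under 0.05. Some of the 144, such as Leuconostoc and Coprococcus, were at 0 in both groups. They passed the filter through other light cycles and could not be called. The share of higher calls moved with the scaling. It was 18 of 19 calls when Enterococcus and Bacteroides were left out of the library size, 11 of 20 with DESeq2 and 16 of 31 with limma on centred log-ratios, and these scalings shifted the median log2 fold change of all genera by 0.66, -0.19 and -0.50. The 6 LD24/0 and 6 LD12/12 shares did not overlap in 18 genera (12.5% of those tested), of which 14 were called. Of the 25 called genera, 16 stayed below a mean share of 0.1% in both groups, and 2 reached a mean of 1% in either group, Bacteroides and Lentilactobacillus.

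**Figure D2:**
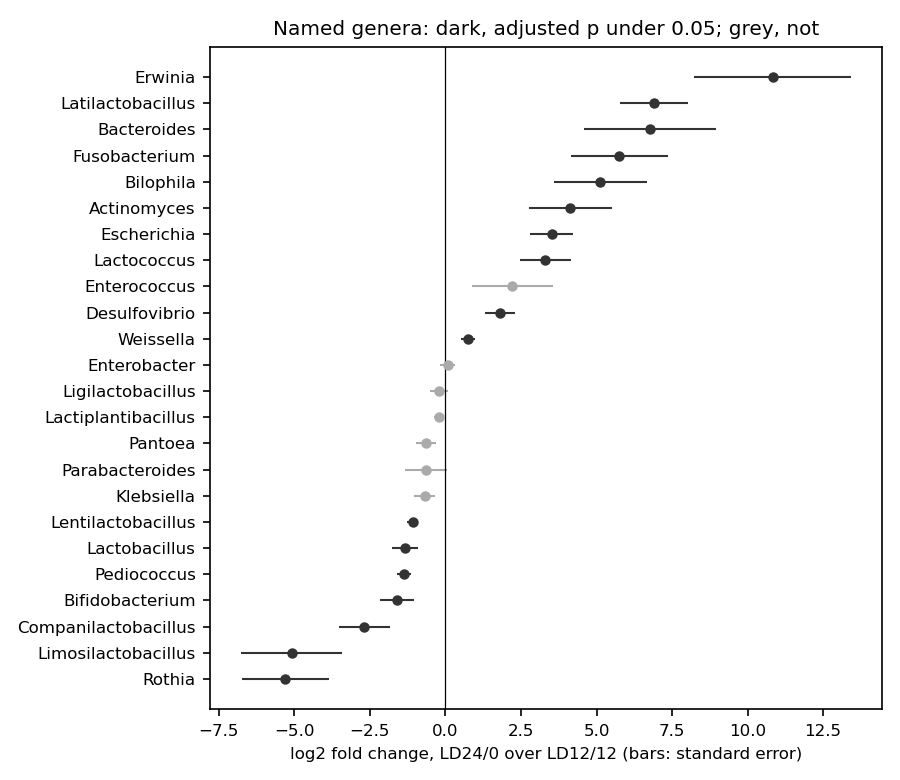
Log2 fold change of LD24/0 over LD12/12 (horizontal axis, bars are standard errors of the edgeR fit on 29 samples) for the 24 named genera, dark where the adjusted p was under 0.05. Values of Erwinia, Fusobacterium, Bilophila, Rothia and Limosilactobacillus depend on the fit's prior count, since all 6 samples of 1 group were at 0.

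The lactic acid bacteria and bifidobacteria, which ferment sugars to lactate, held most of the lower calls. Of 14 tested members of this list, 3 were higher in LD24/0, 6 were lower and 5 did not pass, against 11.8% higher and 5.56% lower over all 144 genera. Leuconostoc, among the 5, was at 0 in both groups. The median log2 fold change was -0.22, against 0.09 over all genera. Their summed share was 3.52% ± 0.451 (SD, n = 6) in LD24/0 and 5.19% ± 0.842 (SD, n = 6) in LD12/12. The lowest LD12/12 sum, 4.66%, was above the highest LD24/0 sum, 3.98%. The list and its sum do not hold Enterococcus, which also makes lactic acid and took a mean of 22.5% in LD24/0 and 4.84% in LD12/12. When Enterococcus and Bacteroides were left out of the library size, all 6 lower calls ended, with adjusted p of 0.0734 to 0.540.

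Lentilactobacillus, a heterofermentative lactobacillus, had a lowest, median and highest share of 0.406%, 0.613% and 0.635% in LD24/0 and of 1.14%, 1.18% and 1.32% in LD12/12. The groups did not overlap (edgeR log2 fold change -1.08 ± 0.18, adjusted p = 9.4e-05). Pediococcus, a lactic coccus, ran from 0.123% to 0.170% in LD24/0 and from 0.346% to 0.452% in LD12/12, with a log2 fold change of -1.37 ± 0.23 (adjusted p = 9.4e-05). Both kept their calls without any 1 of the 12 samples. Neither call was kept when Enterococcus and Bacteroides were left out of the library size, with log2 fold changes of -0.42 (adjusted p = 0.472) for Lentilactobacillus and -0.69 (adjusted p = 0.271) for Pediococcus. With the set as a block the log2 differences were -0.48 (adjusted p = 0.800) and 0.11 (adjusted p = 1.00). The LD0/24 libraries of the set of LD24/0 were at 0.637% and 0.684% for Lentilactobacillus and at 0.186% and 0.132% for Pediococcus. The other 4 LD0/24 libraries were at 0.616% to 0.860% for Lentilactobacillus, also below every LD12/12 value, and at 0.341% to 0.457% for Pediococcus, spanning the LD12/12 range.

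Lactobacillus, the genus of the gut lactobacilli of rodents, was lower in LD24/0, with a median of 0.118% against 0.213% and overlapping groups (log2 fold change -1.34 ± 0.43, edgeR adjusted p = 0.0307). Leaving out LD24/0 replicate 4 or 6, or LD12/12 replicate 5 or 6, ended this call, with an adjusted p of up to 0.0946. Unlike the genera above, it was high in both LD0/24 libraries of the set of LD24/0, at 0.450% and 0.340%, and its log2 difference with the set as a block was -2.45 (adjusted p = 0.334). Companilactobacillus was lower too, at 0 to 0.00875% in LD24/0 and 0.0214% to 0.0340% in LD12/12 (-2.68 ± 0.85, adjusted p = 0.0291), and its call ended without LD24/0 replicate 3 (adjusted p = 0.0541) and with the set as a block (-1.38, adjusted p = 0.947).

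Bifidobacterium, an anaerobe that ferments oligosaccharides, was lower in LD24/0, and 2 LD12/12 samples stood above the rest. Its lowest, median and highest share was 0.288%, 0.295% and 0.346% in LD24/0 and 0.341%, 0.423% and 3.04% in LD12/12, the highest being replicate 1, followed by replicate 4 at 0.979%. The log2 fold change was -1.59 ± 0.56 (SE, edgeR adjusted p = 0.0487) and -0.72 without LD12/12 replicate 1 (adjusted p = 0.435). Leaving out LD12/12 replicate 4 or any LD24/0 sample also ended the call, as did the set as a block (-1.07, adjusted p = 0.917). Limosilactobacillus was at 0 in all LD24/0 samples and was counted in 3 LD12/12 samples, at up to 0.0167%. It was at least 1.42-fold lower in LD24/0 when each sample at 0 is set to 3 counts (edgeR adjusted p = 0.0360), and its call ended without any 1 of the 6 LD24/0 samples or of those 3 (adjusted p of up to 0.0702).

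The 3 members of the list that were higher in LD24/0 were Weissella, Lactococcus and Latilactobacillus. Weissella, a relative of the leuconostocs, ran from 0.250% to 0.366% in LD24/0 and from 0.155% to 0.189% in LD12/12, a 1.69-fold difference without overlap (log2 fold change 0.75 ± 0.23, edgeR adjusted p = 0.0222), and its call ended without LD24/0 replicate 4 (adjusted p = 0.0562). It also ended with DESeq2, TMMwsp factors and limma on centred log-ratios, at log2 fold changes of 0.48, 0.52 and 0.24 (adjusted p = 0.0542, 0.133 and 0.702), and with the set as a block, at 0.10 (adjusted p = 1.00). Its 2 called variants differed in opposite directions. A Weissella variant at means of 0.229% and 0.110% in LD24/0 and LD12/12 was higher (1.06 ± 0.36, edgeR adjusted p = 0.0475), and another, at 0 in LD24/0 and a mean of 0.0203% in LD12/12, was lower (adjusted p = 0.0015). The Lactococcus counts were nearly all of a variant assigned to Lactococcus garvieae, known as a pathogen of fish. The genus ran from 0.0501% to 0.103% in LD24/0 and from 0 to 0.0148% in LD12/12 (3.31 ± 0.84, adjusted p = 0.0120), and the log2 difference was -0.22 with the set as a block (adjusted p = 1.00). Latilactobacillus ran from 0.0662% to 0.127% in LD24/0 and had 2 counts in all of LD12/12. The ratio of its summed counts was 166, with an exact 95% interval of 45.7 to 1379 that covers counting error only (adjusted p = 9.4e-05). With the set as a block its log2 difference was 1.38 (adjusted p = 0.917). The LD0/24 libraries of the set of LD24/0 held 0.0947% and 0.130% of Latilactobacillus, inside or just above the LD24/0 range, and the other 4 held 0.0162% to 0.0283%.

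Of 7 tested members of the Enterobacterales list, Erwinia was higher in LD24/0 and 6 did not pass, a share near the 11.8% of all genera called higher. The median log2 fold change was 0.49, and the summed share was 27.7% ± 8.78 (SD, n = 6) in LD24/0 and 42.4% ± 12.4 (SD, n = 6) in LD12/12. Erwinia, a genus of plant-associated bacteria, ran from 0.324% to 0.410% in LD24/0 and was at 0 in all LD12/12 samples, at least 74.8-fold higher when each sample at 0 is set to 3 counts (edgeR adjusted p = 0.0218). It was at 0.352% and 0.319% in the LD0/24 libraries of the same set and at 0 in every other colon library under antibiotics, and the fit with the set as a block could not estimate it. The reads of the genus of E. coli stand under 2 names in the table, of which the list held Escherichia-Shigella. Escherichia-Shigella was at 0.503% ± 0.139 and 0.359% ± 0.120 in LD24/0 and LD12/12 (SD, n = 6 each) with overlapping ranges (edgeR log2 fold change 0.49 ± 0.90, adjusted p = 0.955). Escherichia, which held 1 tested variant, assigned to Escherichia sp. CPD32, was called. It ran from 0.207% to 0.303% in LD24/0 and from 0 to 0.0395% in LD12/12 without overlap (log2 fold change 3.52 ± 0.72, adjusted p = 0.00148), and the 2 LD0/24 libraries of that set held 0.216% and 0.183%. The other 4 LD0/24 libraries held 0.0518% to 0.0966% and the 4 LD16/8 libraries outside the set of LD12/12 held 0.0532% to 0.0782%, all above every LD12/12 value and below every LD24/0 value. With the set as a block the log2 difference of Escherichia was 1.43 (adjusted p = 0.937). Both names summed to 0.607% to 0.980% in LD24/0 and 0.319% to 0.628% in LD12/12, which overlap.

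Both tested members of the list of sulfate reducers and sulfite users, which give off hydrogen sulfide, were higher in LD24/0, against 11.8% of all genera, from a list of 2 tested. Desulfovibrio had a lowest, median and highest share of 0.0656%, 0.106% and 0.557% in LD24/0 and of 0.0411%, 0.0454% and 0.0714% in LD12/12. The groups overlapped slightly, and the log2 fold change was 1.82 ± 0.49 (SE, edgeR adjusted p = 0.0152). Replicate 4 of LD24/0 stood at 0.557%, and without it the log2 fold change was 0.98 and the call ended (adjusted p = 0.135), as it did with limma on centred log-ratios (0.85, adjusted p = 0.187) and with the set as a block (2.22, adjusted p = 0.447). Both LD0/24 libraries of the set of LD24/0 were nearer to LD12/12 here, at 0.0592% and 0.0579%. Bilophila, a bile-tolerant relative, reached 0.0113% in LD24/0 and was at 0 in LD12/12, at least 1.40-fold higher (adjusted p = 0.0277). With Bilophila at that bound, the median log2 fold change of both was 1.15, against 3.47 as fitted. Unclassified Desulfovibrionaceae, of the same family, stood on no list and was at means of 0.0217% in LD24/0 and 0.0411% in LD12/12. It went the other way and did not pass (edgeR log2 fold change -0.92 ± 0.59, adjusted p = 0.394).

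Among oral, reagent and environmental genera and plastids, 12 were tested, 2 were higher in LD24/0, 1 was lower and 9 did not pass, against 17.4% called over all genera. Actinomyces, mainly an oral genus, ran from 0.0254% to 0.0723% in LD24/0 and from 0 to 0.00501% in LD12/12 (log2 fold change 4.13 ± 1.37, edgeR adjusted p = 0.0350). Its call ended without any 1 of 10 of the 12 samples, the exceptions being LD24/0 replicate 1 and LD12/12 replicate 6, and with the set as a block the log2 difference was 0.25 (adjusted p = 1.00). Fusobacterium, an anaerobe of the mouth and gut, ran from 0.00336% to 0.0208% in LD24/0 and was at 0 in LD12/12, at least 2.17-fold higher (adjusted p = 0.0222, and 0.147 with DESeq2). Rothia, an oral genus, was at 0 in LD24/0 and reached 0.0132% in LD12/12, at least 1.65-fold lower in LD24/0 (adjusted p = 0.0193, and 0.359 with the set as a block).

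The remaining 8 called genera stayed under a mean of 0.1% in both groups and belonged to no list. Caproiciproducens, Allorhizobium-Neorhizobium-Pararhizobium-Rhizobium, UBA1819, Devosia, Erysipelotrichaceae UCG-003, Romboutsia and an unclassified group of Gammaproteobacteria were higher in LD24/0, and Clostridium sensu stricto 12 was lower. Caproiciproducens, whose variant is a marker of set A, was at least 8.09-fold higher, and Clostridium sensu stricto 12 at least 1.47-fold lower, each with samples at 0 set to 3 counts. The calls of Romboutsia and Clostridium sensu stricto 12 ended in 9 and 10 of the 12 fits that left out 1 sample.

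The list of Clostridia that make short-chain fatty acids such as butyrate from fibre showed no call among 24 tested members. Coprococcus, among the 24, was at 0 in both groups. Over all genera 17.4% were called. The summed share of the list was 0.467% ± 0.149 (SD, n = 6) in LD24/0 and 0.491% ± 0.155 (SD, n = 6) in LD12/12, with overlapping ranges and a median log2 fold change of -0.27. Variants within the list were called, 1 higher and 2 lower in LD24/0 in Subdoligranulum and 1 lower in Faecalibacterium. Of 9 tested Bacteroidales, Bacteroides passed and 8 did not, against 11.8% of all genera called higher. Akkermansia, Helicobacter and Mucispirillum, which live on or in mucus, summed to 0.0329% ± 0.00795 in LD24/0 and 0.0295% ± 0.0103 in LD12/12 (SD, n = 6 each), and neither of the 2 tested members passed. Neither of the 2 tested members of the Erysipelotrichales list passed. That list does not hold Erysipelotrichaceae UCG-003, which was called. Neither of the 2 tested host-dependent bacteria of reduced genome passed. Enterococcus was the 1 tested member of the list of enterococci and staphylococci.

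Libraries of other light cycles within the same sets show how the called genera lay between sets. Of the 25 called genera, 19 had both LD0/24 libraries of set A nearer to the LD24/0 mean than to the LD12/12 mean on a log scale, and 20 had both LD16/8 libraries of set C nearer to the LD12/12 mean. Both counts include Erwinia and Caproiciproducens, which hold variants that defined set A, so their place was fixed by that definition. Of the 119 genera not called, 39 had both LD0/24 libraries nearer to LD24/0 and 34 nearer to LD12/12, and 27 had both LD16/8 libraries nearer to LD12/12 and 45 nearer to LD24/0. The 4 LD0/24 libraries outside set A were all nearer to LD24/0 for 6 of the 25, all nearer to LD12/12 for 9 and divided for 10. The 4 LD16/8 libraries outside set C were all nearer to LD12/12 for 11, all nearer to LD24/0 for 5 and divided for 9. Among the genera nearer to LD12/12 outside the sets were Erwinia, Caproiciproducens and Rothia, a marker of set B. Agreement of 4 libraries is a stricter rule than agreement of 2, so these counts cannot be set against those within the sets. Bacteroides, Desulfovibrio, Lactobacillus and an unclassified group of Gammaproteobacteria were the 4 called genera for which both LD0/24 libraries of the set lay nearer to LD12/12, the LD24/0 mean of Bacteroides being raised by 2 samples. With the set as a block, 137 genera were tested and 2 were called (1.46%), both lower in LD24/0 and neither among the 25. These were Anaeroplasma, a wall-less anaerobe (log2 difference -11.15, adjusted p = 0.0125), and the unclassified Clostridia vadinBB60 group (-6.66, adjusted p = 0.0175), named after their values were seen. Their direct log2 fold changes were -1.08 and -1.86, with adjusted p of 0.854 and 0.150. Both were high in the 2 LD0/24 libraries of set A, through which the block is estimated, at 7.24% and 0.898% for Anaeroplasma and 5.21% and 3.86% for the vadinBB60 group.

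**Figure D3:**
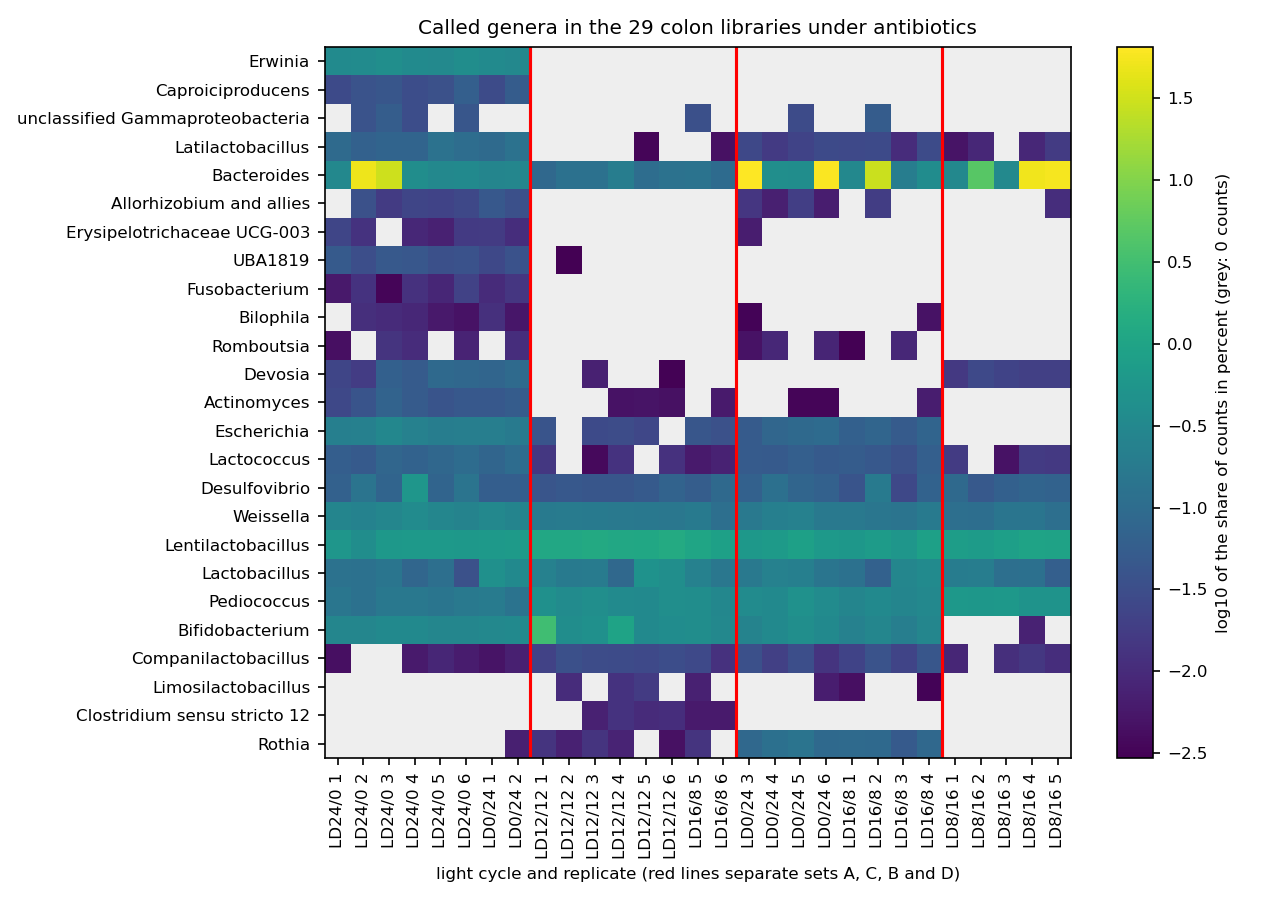
Log10 of the share of counts in percent (colour, grey for 0 counts) of the 25 called genera (rows, Allorhizobium and allies being Allorhizobium-Neorhizobium-Pararhizobium-Rhizobium) in the 29 colon libraries under antibiotics, ordered by library set with red lines between sets A, C, B and D. Erwinia, a marker of set A, is filled in all 8 of its libraries and in no other.

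At the level of phyla, 5 had a mean share of at least 0.1% and were tested by a two-sided exact permutation test over all splits of 6 against 6, whose smallest p is 0.00216. Firmicutes, which hold Enterococcus, the other lactic acid bacteria and Clostridia, took 27.5% ± 13.8 and 11.4% ± 8.86 in LD24/0 and LD12/12 (SD, n = 6 each), a difference of 16.1 percentage points (exact p = 0.0238, adjusted over 5 phyla 0.0397). Without Enterococcus the rest of Firmicutes took 4.95% ± 0.888 and 6.51% ± 0.720 (SD, n = 6 each), so the higher share of the phylum in LD24/0 was that of Enterococcus, which did not pass the test across genera. The call was kept without LD24/0 replicate 5 or LD12/12 replicate 3 and ended without any other sample, with an adjusted p of up to 0.157. Proteobacteria took 29.3% ± 8.82 and 43.2% ± 12.5 (SD, n = 6 each, exact adjusted p = 0.0595), and 0.0108 without LD24/0 replicate 6. Bacteroidota took 42.2% ± 16.4 and 43.9% ± 12.2 (exact adjusted p = 0.831).

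Actinobacteriota, which hold the bifidobacteria, took 0.378% ± 0.0366 in LD24/0 and 0.970% ± 1.05 in LD12/12 (SD, n = 6 each, exact adjusted p = 0.0325). The difference fell from 0.592 to 0.172 percentage points in size without LD12/12 replicate 1, and the call ended without any 1 LD24/0 sample, with an adjusted p of up to 0.244. Cyanobacteria, under which reads of plant chloroplasts are filed, ran from 0.404% to 0.597% in LD24/0 and from 0.326% to 0.373% in LD12/12 without overlap (exact adjusted p = 0.0108). This call was kept without any 1 sample, with an adjusted p of at most 0.0325. The 2 LD0/24 libraries of the set of LD24/0 held 0.538% and 0.583%, and the other 4 LD0/24 libraries 0.466% to 0.592%, all above every LD12/12 value. The 2 LD16/8 libraries of the set of LD12/12 held 0.261% and 0.243%, and the other 4 held 0.314% to 0.594%. LD8/16 ran from 0.368% to 0.472%. Unclassified Chloroplast, which held nearly all reads of Cyanobacteria in both groups, did not pass the test across genera (edgeR log2 fold change 0.52 ± 0.20, adjusted p = 0.0788). With the set as a block its log2 difference was -0.41 (adjusted p = 0.917).

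No measure of diversity passed its test. The Shannon index of variants (natural logarithm), which rises with the number and evenness of variants, was 2.45 ± 0.360 and 2.36 ± 0.176 in LD24/0 and LD12/12 (two-sided exact permutation test, adjusted p over 4 measures 0.647). The Shannon index of genera was 1.74 ± 0.179 and 1.56 ± 0.115 (exact adjusted p = 0.156). The expected number of variants in 53336 counts was 209.9 ± 19.0 and 179.2 ± 32.2 (exact adjusted p = 0.156). The most abundant genus took 44.9% ± 11.9 and 47.9% ± 9.14 (exact adjusted p = 0.647). The errors are SD over 6 samples per group.

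Composition as a whole differed between the light cycles. On Bray-Curtis distances between variant shares, which run from 0 for the same composition to 1 for no shared variant, the light cycle accounted for 32.7% of the squared variation (exact permutation p = 0.00649). The mean distance was 0.420 within LD24/0, 0.256 within LD12/12 and 0.445 between them. The larger spread within LD24/0 did not pass its exact permutation test (p = 0.0736), and did without LD12/12 replicate 3 (0.0498) or replicate 4 (0.0390). The order turned on Jaccard distances, at 0.631 within LD24/0 and 0.666 within LD12/12 (exact p = 0.182), and on Aitchison distances, at 15.1 and 16.0 (exact p = 0.281). For the light cycle, Jaccard distances, which use presence alone, gave 19.1% and Aitchison distances on genera 34.7%, each with an exact p of 0.00216, the smallest possible. Library set and light cycle coincide here too and cannot be told apart.

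At the level of variants, 306 were tested and 41 were called (13.4%), 28 higher in LD24/0 (9.15%) and 13 lower (4.25%). Of these, 23 belonged to called genera and 2 reached a mean share of 1% in either group. The 2 were the leading Bacteroides variant, at 13.8% ± 22.0 and 0.116% ± 0.0345 (SD, n = 6 each, log2 fold change 6.89 ± 2.13, edgeR adjusted p = 0.0319), and the leading Lentilactobacillus variant, at 0.577% ± 0.0878 and 1.20% ± 0.0568 (-1.06 ± 0.28, adjusted p = 0.0223). The Lentilactobacillus variant made up at least 94.6% of its genus in every sample, and the Bacteroides variant 99.8% in the 2 high samples.

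Some variants were present in all samples of 1 light cycle and in none of the other. With at least 3 counts in each LD24/0 sample and none in LD12/12 there were 13 variants, which together took 0.810% to 0.975% of the counts of a sample. Of these, 11 had at least 3 counts in both LD0/24 libraries of set A, where the 13 summed to 0.829% and 0.833%. At that level 3 of the 13 were in any of the 15 remaining colon libraries under antibiotics, and 9 were in both LD0/24 libraries of set A and none of the 15. Set A was defined by 7 variants with at least 10 counts in each of its 8 libraries and fewer in every other library. For those of the 7 that are among the 13, presence in both LD0/24 libraries was fixed by that definition. The 11, the 9 and the summed shares are therefore in part a result of how the set was formed. The reverse pattern, in all LD12/12 samples and no LD24/0 sample, was shown by 6 variants, of which 5 were in both LD16/8 libraries of set C and all 6 in at least 1 of the 15 others. A Klebsiella pneumoniae variant, at 0.0921% ± 0.0133 (SD, n = 6) in LD24/0 and 0 in LD12/12, was of the first kind (edgeR adjusted p = 0.0223).

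Within a genus, the shares of its variants do not depend on how much of the sample other genera take. Among 30 variants of the 10 most abundant genera, the share of the genus differed for 7 in an exact permutation test adjusted over the 30. The second Lactiplantibacillus variant made up 10.5% ± 1.41 of its genus in LD24/0 and 19.6% ± 1.10 in LD12/12 (SD, n = 6 each, exact p = 0.00216, adjusted 0.0162), and the first variant 89.3% ± 1.63 and 80.4% ± 1.10. No sample overlapped. In percent of all counts, the 2 LD0/24 libraries of set A held 0.144% and 0.150% of the second variant. They held 1.18% and 1.41% of the first. The other 4 LD0/24 libraries held more of the second, 0.222% to 0.259%, and less of the first, 0.878% to 1.08%. Within LD0/24 the split thus differed between library sets. The leading Pantoea variant made up 89.3% ± 4.76 and 96.4% ± 1.5 of its genus (exact adjusted p = 0.0186), with overlapping ranges. Library set and light cycle coincide for LD24/0 and LD12/12, and the part of the set in the 7 differences was not tested.

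**Figure D4:**
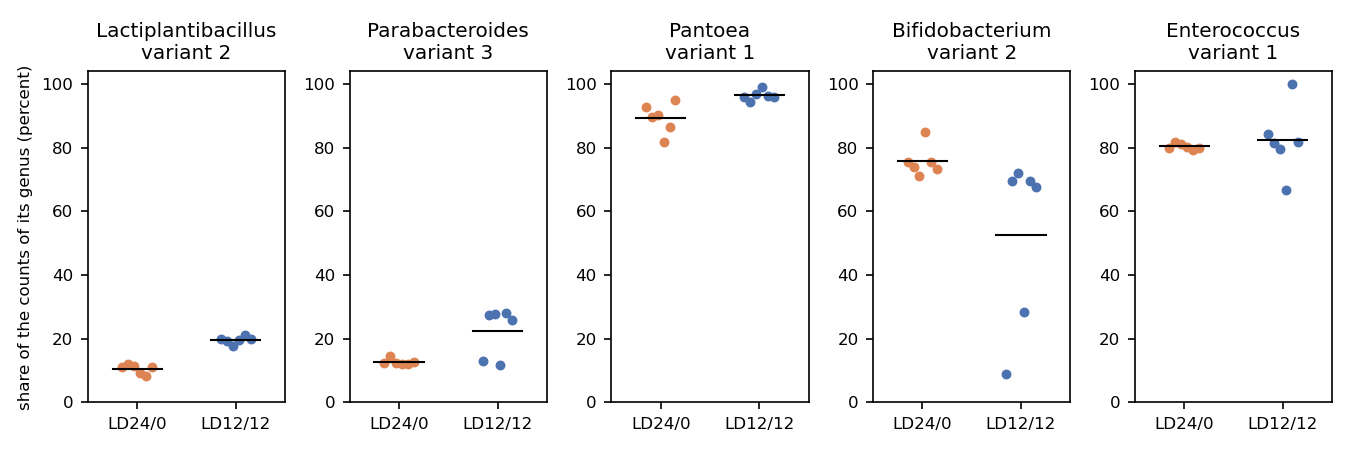
Share of the counts of its genus in percent (vertical axes, from 0) of 5 variants in each of the 6 LD24/0 and 6 LD12/12 samples, with lines at the group means. The second Lactiplantibacillus variant sits at 8.25% to 12.0% in LD24/0 and 17.8% to 21.1% in LD12/12.

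The 3 leading Parabacteroides variants had no species name. The third made up 12.1% to 14.5% of the genus in LD24/0, and in LD12/12 11.8% and 12.9% in replicates 4 and 1 but 25.9% to 28.2% in the other 4. The difference of means was not called (exact p = 0.0433, adjusted 0.130). The first variant was steady at 30.7% to 36.7% in LD24/0 and 33.5% to 35.8% in LD12/12. In Bifidobacterium, the 2 high LD12/12 samples owed their level to 1 variant, which made up 85.9% of the genus in replicate 1 and 61.0% in replicate 4 but at most 4.00% in any other of the 12 samples. The second Bifidobacterium variant, the usual leader, was at 0.234% ± 0.0310 of all counts in LD24/0 and 0.274% ± 0.0295 in LD12/12 (SD, n = 6 each, edgeR adjusted p = 0.994).

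In LD24/0, Enterococcus consisted almost wholly of a pair of variants assigned to Enterococcus gallinarum, a species with chromosomal low-level vancomycin resistance. The first variant had 4.23 ± 0.239 times the counts of the second in LD24/0 (SD, n = 6) and 4.53 ± 0.504 times in the 5 LD12/12 samples that held both. The same pair led in LD12/12 replicate 3, where the first made up 79.6% of the genus, against 79.3% to 81.8% in LD24/0. In LD12/12 replicate 4, where the genus took 0.314%, a variant of Enterococcus faecalis made up 18.5% of it. Klebsiella was 97.0% to 99.8% 1 variant of Klebsiella aerogenes in all 12 samples.

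The same light contrast was measured in the cecum under antibiotics, from samples that the labels do not tie to the colon samples. Of 147 genera tested, 8 had a light difference that was not the same at both sites (5.44%). None of the 4 leading genera was among them. Enterococcus ran from 0.489% to 4.55% in cecal LD24/0 and from 0.0487% to 2.15% in cecal LD12/12, a log2 fold change of 2.27 against 2.22 in the colon in the same fit (difference -0.05 ± 1.41, edgeR adjusted p = 1.00). In the cecum too, 2 of 6 LD24/0 samples were high in Bacteroides, at 68.2% and 64.2%, with the other 4 at 0.0751% to 0.265%. The colonic and cecal log2 fold changes of Bacteroides were 6.76 and 7.44 (difference -0.67 ± 1.88, adjusted p = 1.00). An SE above 1 on the log2 scale leaves differences of several fold between sites within the error.

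The 8 genera that differed between sites had low shares, except Lactiplantibacillus in the colon. Weissella, higher in LD24/0 in the colon, was at 0 in cecal LD24/0 and at a mean of 0.0156% in cecal LD12/12 (difference 7.10 ± 0.74, edgeR adjusted p = 5.25e-07). Lactiplantibacillus was at 0.00282% and 0.0400% in the cecum against 1.17% and 1.37% in the colon (difference 3.52 ± 0.78, adjusted p = 0.00567). Bilophila, Actinomyces and Fusobacterium were also among the 8. Library sets were not formed here for the cecal and chow libraries, and their part in these differences was not tested.

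**Figure D5:**
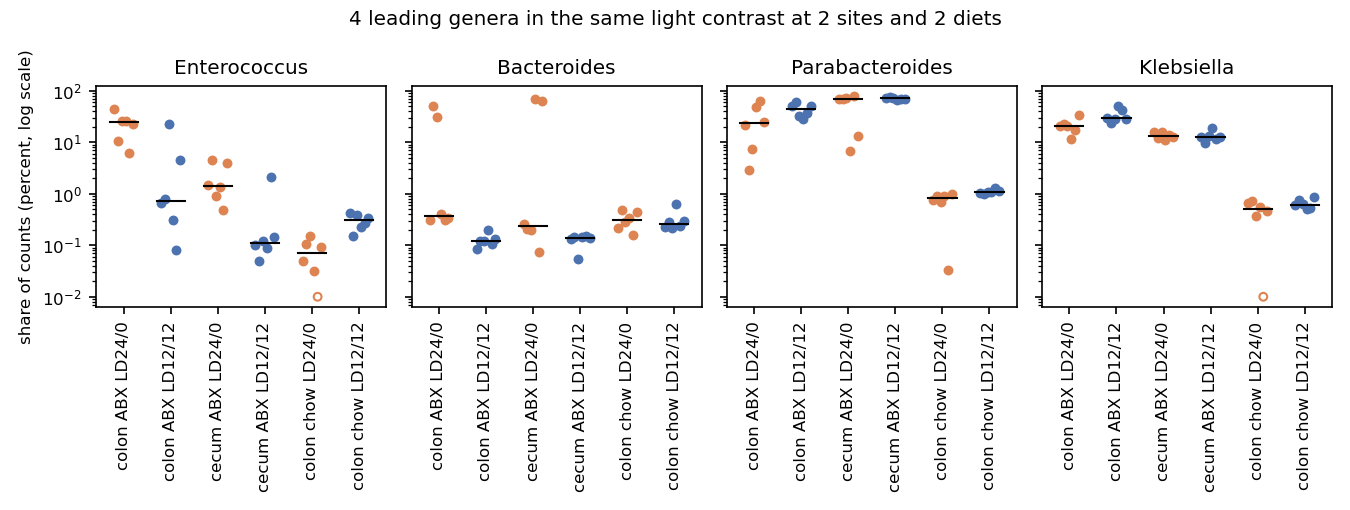
Share of counts in percent (log scale) of Enterococcus, Bacteroides, Parabacteroides and Klebsiella in each sample of LD24/0 (orange) and LD12/12 (blue) in the colon under antibiotics (ABX), the cecum under antibiotics and the colon on chow, with black lines at medians and open circles for samples at 0. The colonic medians of Enterococcus under antibiotics are 24.3% and 0.731%.

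The colon on chow gave the contrast without antibiotics. Of 188 genera tested, 11 had a light difference that depended on the diet (5.85%). Bacteroides was 1 of them, at a mean of 0.320% in LD24/0 and 0.315% in LD12/12 on chow, so that its light difference was 6.74 ± 1.42 larger on the log2 scale under antibiotics (edgeR adjusted p = 0.00175). Enterococcus was at a mean of 0.0722% and 0.299% on chow, lower in LD24/0 there by 2.04 on the log2 scale (adjusted p = 0.164), and the difference between diets was 4.26 ± 1.38 (adjusted p = 0.0610). Lentilactobacillus, lower in LD24/0 under antibiotics, was at 0.502% in LD24/0 and 0.00213% in LD12/12 on chow (difference -8.82 ± 1.40, adjusted p = 7.27e-05). Actinomyces, higher in LD24/0 under antibiotics, was at 0.0013% and 0.298% on chow (difference 11.72 ± 1.49, adjusted p = 4.42e-06). Klebsiella and Parabacteroides differed by -0.21 ± 0.90 and -0.02 ± 0.84 between diets (adjusted p = 1.00 each).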

How the data were processed

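Read counts per amplicon sequence variant and sample, not normalised, were deposited by the authors with a table of taxon names. Per the labels' protocols, a stool kit was used for DNA and PacBio SMRTbell libraries were made. The same protocol text speaks of rumen digesta, while the labels of each sample name colonic content. Which denoiser, primers and taxonomy database were used is not given in the sources used here. Variant sequences were not used here.

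Counts were summed by genus. The 629 variants with no taxon stayed in the total count and out of the tests, and took at most 0.00322% of any of the 12 samples. In R 4.3.3, the robust quasi-likelihood test of edgeR 4.0.16 was run on genera and on variants, scaled by each sample's total count alone, over the 29 colon samples under antibiotics, which share 1 estimate of the spread. Features needed 3 counts in 5 samples, and p values were adjusted over all features tested (Benjamini-Hochberg, threshold 0.05). The SE is the absolute log2 fold change divided by the square root of F. Interactions were fitted on 24 samples. Single measures used exact permutation in Python 3.11.15 with numpy 2.4.6. A fold against a group at 0 used a floor of 3 counts per sample. Alternatives used limma 3.58.1 and DESeq2 1.42.0, the former on logarithms of counts plus 0.5. The procedure was tested on simulated data.

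Named genera were those called with a mean share of at least 0.1% in either group, the 10 most abundant, called members of the 10 taxon lists, and up to 3 variants of each of the 10. Samples, lists and rule were chosen with earlier results of these data known. Library sets were formed after seeing the data, from variants with at least 10 counts and even shares (coefficient of variation under 0.31) below 2% in 5 to 8 libraries. Among 30 pairs of replicates none was a copy of another. Same-numbered samples of both groups did not deviate together (correlations of -0.209 to -0.0012 in 6 pairs), so the numbers were not taken to pair them. Amplicon reads carry no molecular identifiers, so intervals and floors cover counting error only.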

Additional observations from a re-analysis of the deposited data

Results flagged for a closer look

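Among 66 groups of 6 values examined, 9 held a sample far from the other 5. The critical value used marks about 1 in 20 independent groups of normally distributed values. Shares are skewed and some groups are nested, such as Bifidobacterium in Actinobacteriota, so 9 of 66 cannot be set against that rate. Bifidobacterium was at 3.04% in LD12/12 replicate 1, against 0.341% to 0.979% in the other 5, and the phylum Actinobacteriota was at 3.07% in the same sample. Enterococcus was at 22.6% in LD12/12 replicate 3, against 0.0802% to 4.55% in the other 5, and Firmicutes at 29.04% there. Desulfovibrio was at 0.557% in LD24/0 replicate 4, against 0.0656% to 0.138% in the other 5, and at 0.0714% in LD12/12 replicate 6. Escherichia was at 0.303% in LD24/0 replicate 3, Lentilactobacillus at 0.406% in LD24/0 replicate 2, and Latilactobacillus at 0.00334% in LD12/12 replicate 5, the 1 sample of that group where it was counted.

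In 11 genera the light difference under antibiotics differed from that on chow by a test of the interaction. The log2 differences (antibiotics minus chow) were 12.52 for Fusobacterium, 11.99 for Erysipelotrichaceae UCG-003, 11.72 for Actinomyces, 8.37 for Collinsella, 8.21 for Escherichia, 6.74 for Bacteroides, 6.35 for Corynebacterium, -4.01 for unclassified Chloroplast, -6.22 for Levilactobacillus, -6.33 for Companilactobacillus and -8.82 for Lentilactobacillus. In 8 genera the light difference in the colon differed from that in the cecum, by 12.69 for UBA1819, 9.01 for Allorhizobium-Neorhizobium-Pararhizobium-Rhizobium, 7.10 for Weissella, 7.05 for Bilophila, 6.42 for Fusobacterium, 5.47 for Actinomyces, 3.52 for Lactiplantibacillus and -4.82 for Subdoligranulum. Where all samples of a group were at 0, as for Fusobacterium, the size depends on the prior count of the fit and is no bound.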

How the results depend on the processing

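Counts of called genera stayed within 1.5 times of 25 (17 to 31) with TMMwsp factors, DESeq2, limma, a stricter filter, only the 12 samples, another library size, the replicate block or 1 sample left out (17 to 22). They fell to 14 of 313 tested with a filter of 1 count in 1 sample, all 14 among the 25, and to 2 with the library set as a block, an alternative chosen after seeing the data, as was the other library size. Called variants fell from 41 to 22 with the looser filter, to 24 with the replicate block and to 0 with the library set as a block, where 28 of 267 had an unadjusted p under 0.05 in edgeR. Genera that differed between sites numbered 19 of 310 with the looser filter and 4 with the replicate block, against 8. The looser filters test more features. Beyond that the cause was not tested. With the library set as a block, 7 of the 25 called genera changed sign on the log2 scale. Pediococcus went to 0.11 ± 0.37 and Lactococcus to -0.22 ± 1.42 (SE). Caproiciproducens went to -0.062 (SE 66.6), Fusobacterium to -0.20 (SE 289) and Bilophila to -0.78 (SE 1328). UBA1819 went to -1.43 (SE 1504) and Devosia to -3.87 (SE 6922). With SE of 66.6 and above, the fit could not estimate these genera and their sign has no meaning. No other alternative changed the sign of a called genus.

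The replicate number, which did not pair the samples, was used as a block in a sign-flip exact test of the phyla, whose smallest p is 0.0312. It left Firmicutes (difference 16.1 percentage points), Actinobacteriota (-0.592) and Cyanobacteria (0.148) each at an adjusted p of 0.0521. It kept 18 of the 25 called genera, and no sample correlated best with its own number in the other group. Over single samples left out, the difference ran from 11.8 to 19.7 for Firmicutes, from -0.708 to -0.172 for Actinobacteriota, from -17.1 to -9.98 for Proteobacteria and from -6.01 to 2.27 for Bacteroidota, and the difference in spread within groups from 0.111 to 0.191. With 6 samples per group, a genus that varies as widely between mice as Enterococcus can differ several fold without passing the test.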
